A study of Homo sapiens with 4 samples.

Results

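The 10 genes described here encode SOX transcription factors: SOX2, SOX4, SOX5, SOX6, SOX7, SOX9, SOX11, SOX12, SOX13 and SOX15. They were taken by gene name from a table of 55764 genes, and all 10 names were found. The libraries are bulk RNA-seq of TE5, a cell line from a human oesophageal squamous cell carcinoma. In 2 libraries, labelled ETS1 Overexpression, the cells stably carried ETS1, a transcription factor of the ETS family, on a CMV-promoter vector, and in the 2 control libraries, labelled WT, they carried the empty backbone. The protocol describes lentiviral infection with Polybrene followed by selection for both groups, and does not say whether each line is a pool or 1 clone. The labels number the libraries of a group 1 and 2 without saying whether they are separate cultures, so the p-values measure the spread between these libraries, which may be technical.

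SOX proteins bind DNA through an HMG box, a domain that enters the minor groove and bends the helix, and they usually act with a partner factor on a nearby site. The family is divided by sequence into groups, of which B1 (SOX2), C (SOX4, SOX11, SOX12), D (SOX5, SOX6, SOX13), E (SOX9), F (SOX7) and G (SOX15) are represented here. In oesophageal epithelium SOX2 is known as a lineage factor of basal squamous cells and is often amplified in squamous cancers, while SOX4 and SOX9 are associated with epithelial-mesenchymal transition.

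Levels are in FPKM, reads scaled by the length of the gene and by the depth of the library, which allows genes of different length to be compared. Whole reads could be recovered from these values, and the depth came to 40505238 and 44281805 reads in the controls and 57505840 and 56737036 in the ETS1 libraries. ETS1 itself was 0.491 and 0.509 FPKM in the controls (142 and 161 reads) and 1.84 and 1.87 FPKM in the ETS1 libraries (756 and 756 reads). The labelled squamous type was not seen in its markers. KRT5, KRT6A, KRT14, TP63, DSG3 and IVL summed to at most 0.00410 FPKM in each control and at most 0.0638 FPKM in each ETS1 library, and KRT5, KRT6A, KRT14, TP63 and IVL were at 0 in both controls. The simple epithelial list (KRT8, KRT18, KRT19, EPCAM, CDH1) summed to 16.1 to 16.3 FPKM in the controls and 16.8 to 16.9 FPKM in the ETS1 libraries. KRT8 and KRT18 made up most of each sum, with KRT8 higher by 0.62 and KRT18 changed by -0.29 on the log2 scale. In the controls KRT18 was 10.2 and 10.5 FPKM, KRT8 3.91 and 3.87, EPCAM 1.37 and 1.36 and CDH1 0.571 and 0.567. Both ETS1 values lay below both controls for EPCAM and above them for CDH1. KRT19 was nearly absent, at most 0.0224 FPKM in each library.

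The SOX genes spanned a wide range of level, and they kept to 3 tiers in both groups. SOX4 and SOX12 stood highest, at 17.8 to 29.1 FPKM over the 4 libraries. SOX2, SOX9, SOX7 and SOX13 lay between 1.41 and 4.22 FPKM. SOX15, SOX6, SOX5 and SOX11 had means under 1 FPKM. In the controls the order was SOX4, SOX12, SOX2, SOX9, SOX7, SOX13, SOX15, SOX6, SOX5 and SOX11, and the ranges of SOX4 and SOX12, of SOX9 and SOX7, and of SOX7 and SOX13 overlapped. In the ETS1 libraries the order was SOX4, SOX12, SOX9, SOX2, SOX13, SOX7, SOX15, SOX6, SOX5 and SOX11, and no neighbours in that order overlapped. SOX9 thus stood below SOX2 in both controls and above it in both ETS1 libraries.

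**Figure D1:**
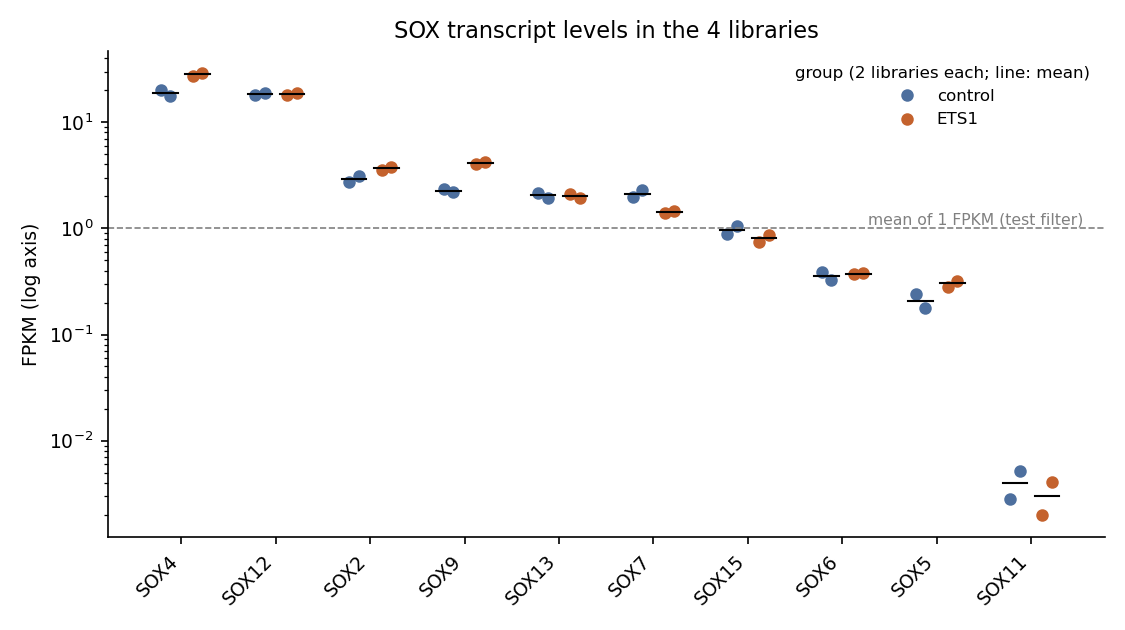
FPKM of each SOX gene (log axis) in the 2 control and 2 ETS1 libraries, 1 point per library with the group mean as a line; the dashed line marks a mean of 1 FPKM. SOX4, SOX9, SOX2 and SOX5 have both ETS1 points above both control points, and SOX7 and SOX15 have both below.

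Of the 10 genes, the 6 with a mean of at least 1 FPKM over the 4 libraries (SOX2, SOX4, SOX7, SOX9, SOX12 and SOX13) were tested with limma on log2(FPKM + 1), a scale that understates the change of low genes, with Benjamini-Hochberg adjustment over 14306 genes. SOX9, SOX4 and SOX2 rose, SOX7 fell, and SOX12 and SOX13 did not pass an adjusted p of 0.05. These 4 of 6 stand beside 59.1% of all tested genes called, 30.7% higher and 28.4% lower, so the share of SOX genes called is near the background. By size of change, SOX9 lay at percentile 95.1 and SOX4 at percentile 92.0 of the absolute log2 changes of tested genes, SOX7 at 77.2 and SOX2 at 61.0. Voom, limma's method for counts, called the same 4 of 6 on recovered reads, beside 63.6% of all genes, and the authors' deposited table has SOX4, SOX9 and SOX7 of 7 listed past an adjusted p of 0.05, beside 51.2%. With no filter limma called SOX4 and SOX9 of 10, beside 19.6%. The smallest two-sided p an exact permutation test can reach with 2 libraries a group is 0.333. Smaller p-values here depend on a model of the variance, which in limma joins each gene's own spread with variance shared across genes. In bulk RNA a change in the number of cells that express a gene and a change in RNA per cell cannot be told apart.

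**Figure D2:**
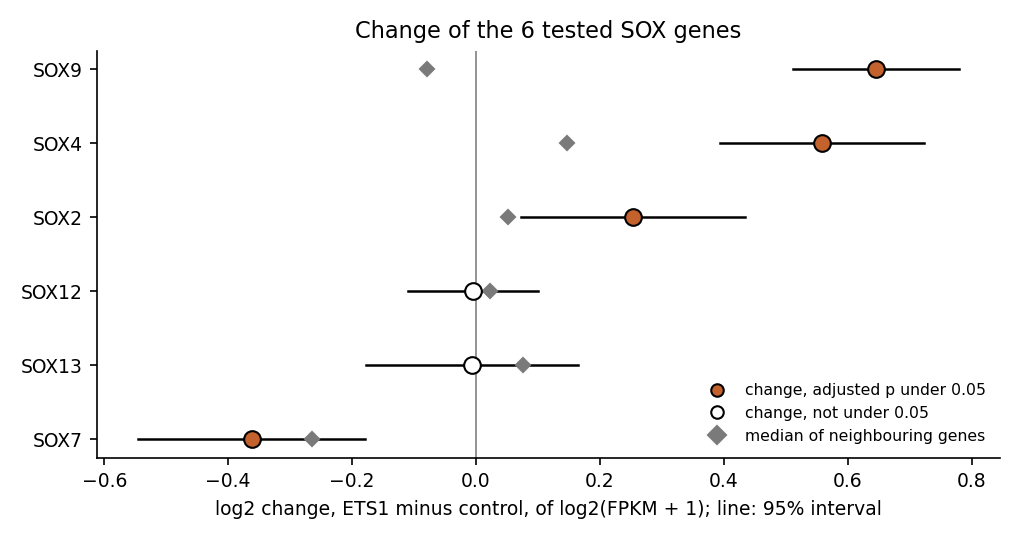
Change of the 6 tested SOX genes between ETS1 and control libraries on the log2(FPKM + 1) scale (circles, with 95% intervals from limma) and the median change of up to 50 neighbouring protein-coding genes on the same chromosome (diamonds). SOX9 at 0.64 and SOX4 at 0.56 lie above the median of their neighbours, while the neighbours of SOX7 are at -0.26.

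The group C genes are mostly single-exon genes that act in embryonic progenitors and neurons, and SOX4 is the member most often raised in carcinomas. SOX4 (ENSG00000124766, chromosome 6, 21592768 to 21598619, plus strand, 1 exon, GENCODE 29 on GRCh38) was 19.9 and 17.8 FPKM in the controls and 27.3 and 29.1 FPKM in the ETS1 libraries. Both ETS1 values lay above both controls. The means were 18.9 ± 1.51 and 28.2 ± 1.29 FPKM (SD, n = 2 each), a ratio of 1.50. Limma gave a log2 change of 0.56 ± 0.063 (standard error, adjusted p 0.00220). The reads behind it were 3938 and 3845 against 7658 and 8061 in the deeper ETS1 libraries, and the log2 fold change in the authors' deposited table is 0.55 (adjusted p 2.2e-19). Genes around SOX4 also tended upward, with a local median of 0.15 that stood at percentile 87.2 of such medians. With that median removed, SOX4 was still higher, by 0.41 (limma adjusted p 0.00309).

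SOX12 (ENSG00000177732, chromosome 20, 325595 to 330224, plus strand, 1 exon), which shares group C with SOX4, was 18.2 and 18.8 FPKM in the controls and 17.9 and 19.0 FPKM in the ETS1 libraries. These values overlapped. The log2 change was -0.0052 with a 95% interval of -0.11 to 0.099 and a limma adjusted p of 0.922, and its sign changed with the fit. The interval comes from 3433 to 5016 reads per library. The ratio of SOX4 to SOX12 was 1.10 and 0.947 in the controls and 1.53 and 1.54 in the ETS1 libraries.

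SOX11 (chromosome 2, 5692667 to 5701385, plus strand), the third gene of group C and a factor of neural progenitors, was barely read. Each group had 1 read in one library and 2 in the other, at most 0.00518 FPKM, so no difference was detectable at this depth.

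ETS proteins bind DNA at a GGAA core, so the 250 bases before the RefSeq start (GRCh38.p14) of 3 SOX genes are shown: SOX12 and SOX13, which did not pass, and SOX2, which did. Each is read 5′ to 3′ along the gene, with GGAA and its reverse complement TTCC in capitals. All are on the plus strand, the SOX12 window at chr20:325302-325551, the SOX13 window at chr1:204072865-204073114 and the SOX2 window at chr3:181711675-181711924.
SOX12: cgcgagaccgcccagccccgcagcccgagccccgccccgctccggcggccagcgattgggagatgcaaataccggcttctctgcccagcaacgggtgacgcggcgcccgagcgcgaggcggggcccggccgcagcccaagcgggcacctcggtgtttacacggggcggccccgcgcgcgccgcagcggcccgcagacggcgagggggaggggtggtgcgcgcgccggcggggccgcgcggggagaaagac
SOX13: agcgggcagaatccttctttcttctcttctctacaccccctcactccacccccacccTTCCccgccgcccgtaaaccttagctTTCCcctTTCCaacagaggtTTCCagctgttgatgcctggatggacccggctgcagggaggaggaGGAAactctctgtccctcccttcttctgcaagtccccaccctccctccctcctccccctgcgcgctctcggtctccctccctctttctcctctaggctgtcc
SOX2: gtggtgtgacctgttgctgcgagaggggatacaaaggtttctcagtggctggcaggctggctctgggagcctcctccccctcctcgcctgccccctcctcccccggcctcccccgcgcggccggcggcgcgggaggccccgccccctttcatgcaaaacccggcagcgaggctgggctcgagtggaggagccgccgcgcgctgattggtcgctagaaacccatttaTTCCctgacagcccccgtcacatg
The SOX12 window held 0 matches, the SOX13 window 5 and the SOX2 window 1. Of windows not shown, that of SOX5 held 1 and those of SOX6, a gene with several starts, 2 to 6. The window before the RefSeq start of SOX4 held 6, but GENCODE 29 starts SOX4 further upstream and places that window inside its exon. Of 35116 windows of this length, 92.7% held at least 1 match, with a median of 3, 9.14% held 6 or more and 7.26% held none. The longer string CCGGAA (reverse TTCCGG, which overlaps GGAA) was in none of the windows of SOX2, SOX4, SOX5, SOX6, SOX12 and SOX13, the 6 of the 10 genes with an entry, and in 14.5% of all. AGGAAG (reverse CTTCCT, which also overlaps GGAA) was found 1 time before SOX4 and 1 time in a SOX6 window, 0 times before SOX2, SOX5, SOX12 and SOX13, and in 28.7% of all windows. A match is a string of letters and not a measured site, and no binding was measured here.

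**Figure D3:**
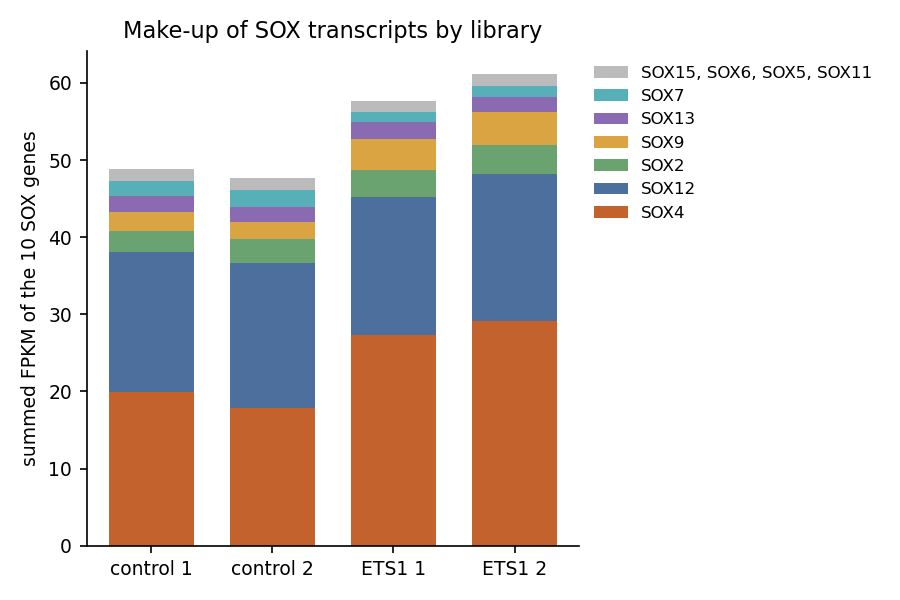
Summed FPKM of the 10 SOX genes in each library, stacked by gene from 0. SOX4 takes 40.8% and 37.3% of the sum in the controls and 47.4% and 47.7% in the ETS1 libraries, and the total goes from 48.8 and 47.7 to 57.7 and 61.1 FPKM.

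The summed FPKM of the 10 genes was 48.8 and 47.7 in the controls and 57.7 and 61.1 in the ETS1 libraries. SOX4 and SOX12 together made up most of it in each library. SOX12 went from 37.2% and 39.4% of the sum in the controls to 31.0% and 31.1% in the ETS1 libraries while its own FPKM overlapped between groups. SOX9 went from 4.82% and 4.59% to 6.95% and 6.91%, and SOX7 from 4.01% and 4.78% to 2.44% and 2.36%.

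SOX9, of group E, directs cartilage and testis development and marks progenitors in several epithelia. It lies on chromosome 17 (ENSG00000125398, 72121020 to 72126420, plus strand, 3 exons). SOX9 was 2.35 and 2.19 FPKM in the controls and 4.01 and 4.22 FPKM in the ETS1 libraries. The read numbers were 375 and 381 against 906 and 942. The groups did not overlap, and the lower ETS1 value was well above the higher control. Means were 2.27 ± 0.118 and 4.11 ± 0.152 FPKM (SD, n = 2 each), a ratio of 1.81, which is the largest among the 10 genes. Limma gave a log2 change of 0.64 ± 0.052 (standard error, adjusted p 0.000992). Limma's voom, run on the recovered reads and so without the FPKM pseudocount, gave 0.83 ± 0.079 (standard error), and the value in the authors' deposited table is 0.81 (adjusted p 2.1e-11). The median over the neighbouring genes was -0.079. Of the 4 nearest tested genes, ABCA5 and SLC39A11 rose (0.23 and 0.21, limma adjusted p 0.0103 and 0.0249), MAP2K6 changed by 0.17 without passing (limma adjusted p 0.0785) and SSTR2 changed by -0.36 (limma adjusted p 0.0121). Its level moved from percentile 21.6 of the tested genes in the controls to 36.3 in the ETS1 libraries.

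SOX2, of group B1, keeps embryonic stem cells and foregut progenitors undifferentiated. It is a single-exon gene on chromosome 3 (ENSG00000181449, 181711924 to 181714436, plus strand), inside the long non-coding gene SOX2-OT, with 0 shared exon bases in GENCODE 29. SOX2 was 2.72 and 3.13 FPKM in the controls and 3.52 and 3.82 FPKM in the ETS1 libraries. Both ETS1 values were above both controls, but the gap between the groups was no larger than the gap between the controls. The means were 2.92 ± 0.288 and 3.67 ± 0.208 FPKM (SD, n = 2 each), a ratio of 1.26. The log2 change of 0.25 (standard error 0.070) had a limma adjusted p of 0.0301. It no longer passed when control 1, ETS1 1 or ETS1 2 was left out (limma adjusted p 0.0792, 0.0543 and 0.130), with no filter on level (0.111) or under quantile normalization (0.0512), and the authors' deposited table gives 0.25 with an adjusted p of 0.0688. Of SOX2-OT there were 69 to 132 reads per library over a long gene, 0.0556 to 0.0952 FPKM, with overlapping groups.

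SOX7, of group F, acts in endothelial and endoderm development and is often described as a restraint on Wnt signalling. It was 1.96 and 2.28 FPKM in the controls and 1.41 and 1.44 FPKM in the ETS1 libraries. Both ETS1 values were below both controls, and the controls spread more than the ETS1 pair. Means were 2.12 ± 0.225 and 1.42 ± 0.0249 FPKM (SD, n = 2 each), and their ratio was 0.672. The limma change was -0.36 ± 0.070 (standard error, adjusted p 0.0104). Voom on its recovered reads, scaled down to about the halved numbers described below, gave -0.60 (limma adjusted p 0.00108). The value in the authors' deposited table is -0.51 (adjusted p 0.00326). With no filter the limma adjusted p was 0.0541.

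The SOX7 value has further limits. SOX7 (ENSG00000171056, chromosome 8, 10723768 to 10730512, minus strand) shares 1268 exon bases, 39.4% of its own, with PINX1 on the same strand in GENCODE 29. PINX1, which encodes a telomerase inhibitor, went from 6.98 and 8.07 FPKM to 4.14 and 3.93 FPKM, a log2 change of -0.76 (limma adjusted p 0.00141). The deposited SOX7 row also fitted an average of 2 gene entries of that name. The level, order and share of SOX7 given above rest on that row and could change if the entries were kept apart. The reads of that row recovered as 432 and 549 against 440 and 445. The mean normalized count in the authors' deposited table, 236.9, equals that of these reads halved and rounded down. Voom was run on these reads scaled to that count, close to the halved numbers. Genes around SOX7 on chromosome 8 had a median change of -0.26, at percentile 3.65 of such medians. With that median removed SOX7 changed by -0.097 and did not pass (limma adjusted p 0.237). The parts of PINX1 and of the neighbourhood in the fall of SOX7 cannot be told apart.

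Group D genes lack a transactivation domain, and SOX5 and SOX6 pair with SOX9 in cartilage. SOX13 (ENSG00000143842, chromosome 1, 204073115 to 204127743, plus strand), also known as an islet cell autoantigen, was 2.16 and 1.94 FPKM in the controls and 2.13 and 1.94 FPKM in the ETS1 libraries. The values overlapped, and the log2 change was -0.0071 with a 95% interval of -0.18 to 0.16 (limma adjusted p 0.935). Its sign changed when control 1 or ETS1 2 was left out.

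SOX5 (chromosome 12, 23529500 to 24562544, minus strand) was low, at 0.240 and 0.176 FPKM in the controls and 0.283 and 0.322 FPKM in the ETS1 libraries (86 and 69 against 144 and 162 reads). Both ETS1 values lay above both controls, with a ratio of means of 1.46. It was under the filter, and with no filter its change of 0.11 did not pass (limma adjusted p 0.206). Voom on the recovered reads of genes with a mean of at least 10 reads, an alternative chosen after seeing the data, gave 0.54 ± 0.19 (standard error) with a limma adjusted p of 0.0276, beside 54.8% of 19068 genes called. The nearby tested genes C2CD5, ETNK1 and BCAT1 changed by 0.60, 0.63 and 0.39 and each passed, and their part in the SOX5 difference was not tested.

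SOX6 (chromosome 11, 15966449 to 16739591, minus strand) was 0.391 and 0.327 FPKM in the controls and 0.370 and 0.378 FPKM in the ETS1 libraries, and both ETS1 values fell between the controls. On 284 to 420 reads per library voom gave 0.045 with a 95% interval of -0.18 to 0.27 (limma adjusted p 0.737).

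SOX15, of group G, is expressed in muscle precursors and in stratified epithelia. It lies on chromosome 17 (7588178 to 7590170, minus strand) and shares 15 exon bases with MPDU1 on the other strand. SOX15 was 0.882 and 1.04 FPKM in the controls and 0.746 and 0.859 FPKM in the ETS1 libraries (55 and 71 against 66 and 75 reads). The ETS1 values were both lower, though the nearest values of the groups were 0.859 and 0.882. Voom gave -0.29 with a 95% interval of -0.75 to 0.17 (limma adjusted p 0.266), and the authors' deposited table gives -0.12 with an adjusted p of 0.506. Over all 10 genes, 4 had both ETS1 values above the controls and 2 had both below. Among the 6 tested genes these counts were 3 and 1, beside 43.1% and 38.9% of all tested genes, 82% in all.

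**Figure D4:**
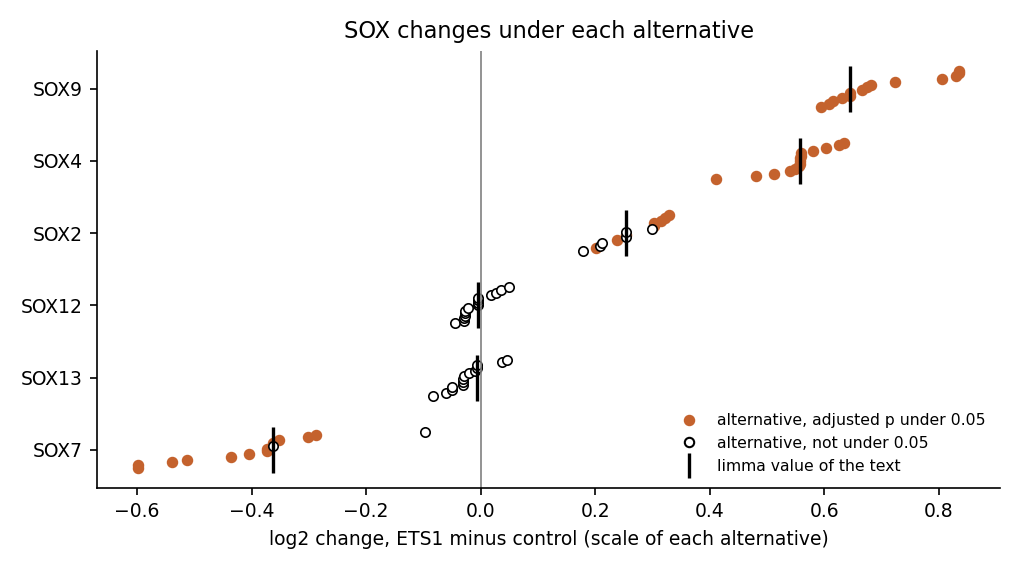
Log2 change of each tested SOX gene under every alternative that could be fitted (1 point each; filled where the adjusted p was under 0.05) with the limma value of the text as a vertical bar. SOX9 and SOX4 passed under all alternatives shown, SOX2 under 8 of 14 and SOX7 under 12 of 14, and SOX12 and SOX13 lie on both sides of 0.

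SOX9 and SOX4 were the steadiest calls. SOX9 kept its direction and passed under 14 of 14 alternatives, with changes from 0.59 to 0.83 and adjusted p-values of at most 0.0105. SOX4 did so under 15 of 15, from 0.41 to 0.64, with adjusted p-values of at most 0.0217.

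The other SOX genes were read as a list of 9. SOX18, SOX21 and SOX8 were tested and none passed limma (changes of 0.048, 0.11 and -0.11, adjusted p 0.711, 0.254 and 0.174), beside 59.1% of all tested genes, and none passed voom on recovered reads. SOX3, a group B1 gene like SOX2, was under the filter, at 1.24 and 1.18 FPKM in the controls and 0.612 and 0.604 FPKM in the ETS1 libraries, and was chosen here after its values were seen. Its 104 and 108 reads against 73 and 71 in the deeper libraries gave a voom change of -1.01 ± 0.18 (standard error, limma adjusted p 0.000413), the opposite direction to SOX2. Of 11 RNAs that overlap or flank SOX genes 3 were in the table, and the 1 tested, SOX21-AS1, did not pass (-0.11, limma adjusted p 0.187). SOX1, SOX10, SOX14, SOX17 and SOX30 were at most 0.215 FPKM in each library.

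Partners and coregulators of SOX factors were compared next: factors that bind beside them, enzymes and corepressors they recruit, and proteins that import, stabilise or degrade them. Of 39, 35 were tested, and 11 rose and 6 fell, with a median log2 change of 0.074 beside 0.016 over all tested genes. The share called, 48.6%, stands beside 59.1% of all tested genes called, 30.7% higher and 28.4% lower. TLE4 went from 11.8 and 11.3 to 18.4 and 18.8 FPKM, a log2 change of 0.64 (limma adjusted p 0.000524), while its paralogue TLE3 went from 9.60 and 9.33 to 6.22 and 6.28 FPKM, a change of -0.53 (limma adjusted p 0.000669). Both encode Groucho-type corepressors. SDCBP, which encodes syntenin, a protein that binds and stabilises SOX4, went from 27.7 and 24.2 to 36.1 and 40.5 FPKM (0.54, limma adjusted p 0.00514). POU3F3, a POU-domain factor, rose by 0.38 (limma adjusted p 0.00156). Of 2 partner genes under the filter with a mean of at least 10 reads, SALL4, a stem cell zinc-finger gene, was higher in voom on those reads (0.67, limma adjusted p 0.00134). CTNNB1, the Wnt effector bound by several SOX proteins, changed by -0.059 (limma adjusted p 0.236).

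Of 10 genes reported as group C targets, 6 were tested, and 5 rose and 0 fell, beside 30.7% and 28.4% of all tested genes, with a median of 0.25. A fall was found under the filter, where 3 had a mean of at least 10 reads. MAP2, a neuronal microtubule gene, went from 0.559 and 0.552 to 0.409 and 0.425 FPKM (voom -0.44, limma adjusted p 0.00300). DICER1, the microRNA-processing enzyme, went from 4.28 and 4.02 to 6.20 and 6.65 FPKM (0.53, limma adjusted p 0.00145). TEAD2, a Hippo pathway factor, rose by 0.36, SEMA3C, a secreted guidance cue, by 0.33 and EZH2, a histone methyltransferase, by 0.16 (limma adjusted p 0.00482, 0.0116 and 0.0126). The neuronal tubulin gene TUBB3 was under the filter, at most 0.111 FPKM in each library.

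Known targets of SOX9, SOX5 and SOX6, 16 in the table, are cartilage genes except for AMH, a testis target of SOX9. Of them 7 were tested, and 3 rose and 2 fell, beside 30.7% and 28.4% of all tested genes. Of the 3 that rose, COL9A2 and COL9A3 had control means of 0.920 and 0.967 FPKM and reached the filter only through the ETS1 libraries, so nothing is read from this count. CTGF, a matricellular factor, went from 1.18 and 1.36 to 2.58 and 3.10 FPKM (0.75, limma adjusted p 0.00237). The collagen IX gene COL9A2 was 0.852 and 0.988 against 1.93 and 1.85 FPKM, and COL9A3 was 0.926 and 1.01 against 1.83 and 1.74 FPKM. COL27A1, a fibrillar collagen gene, fell by 0.28 on the log2 scale (limma adjusted p 0.00768). MATN3, a cartilage matrix gene under the filter, was higher in voom on reads (1.47, limma adjusted p 5.6e-05), 1 of 6 such genes called. AMH fell by 0.55 on the log2 scale, from 34.9 and 37.8 to 24.4 and 24.6 FPKM (limma adjusted p 0.00101). COL2A1, the collagen II gene, was 2.31 and 2.50 FPKM against 2.70 and 2.55 FPKM and did not pass (0.090, limma adjusted p 0.213).

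Of 14 squamous and stem cell targets of SOX2, 5 were tested, and 2 rose and 2 fell, 80% called beside 59.1% of all tested genes, with a median of 0.096. UTF1, a chromatin factor of pluripotent cells, went from 4.89 and 4.89 to 1.36 and 1.57 FPKM (-1.26, limma adjusted p 0.000482), and CCND1, the cyclin D1 gene, from 7.10 and 7.32 to 3.81 and 3.74 FPKM (-0.78, limma adjusted p 0.000482). NES, which encodes the filament protein nestin, rose by 0.63 and LIN28B, an RNA-binding protein gene, by 0.21 (limma adjusted p 0.00157 and 0.00623). JAG1, a Notch ligand gene, was under the filter and higher in voom on reads (0.72, limma adjusted p 0.000979). Its reads did not recover as whole numbers (97.2 and 99.7 against 222.4 and 221.9), so that value rests on scaled reads. Among 7 group F targets 2 were tested, and 1 passed, beside 59.1% of all tested genes. NOTCH1 fell by 0.20 on the log2 scale (limma adjusted p 0.0153) and FGFR4 changed by -0.14 (limma adjusted p 0.0503). Under the filter, VCAM1, an adhesion molecule gene, went from 8 and 8 to 123 and 121 reads, and had a mean of at least 10 reads only through the ETS1 libraries. DLL4, a Notch ligand gene, went from 103 and 108 to 60 and 68 reads (voom -1.17, limma adjusted p 0.000192). These under-filter genes were added after their values were seen, and 54.8% of all genes were called in that fit.

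**Figure D5:**
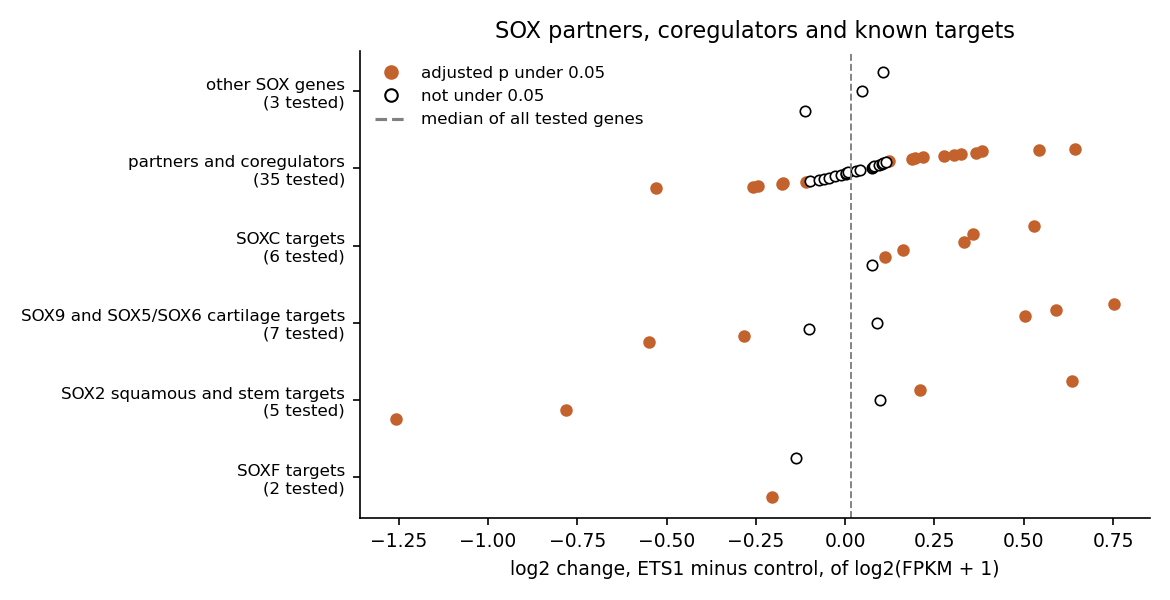
Log2 change on the log2(FPKM + 1) scale of each tested gene (1 point) in the lists of other SOX genes, partners and coregulators, and known targets; filled points have a limma adjusted p under 0.05 and the dashed line is the median of all tested genes. The 6 tested group C (SOXC) targets lie right of the line, both tested group F (SOXF) targets lie left of it, and the other lists lie on both sides. Genes under the filter, where targets of groups C and F changed in both directions, are not shown. The cartilage row includes AMH.

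Markers of other cell types were read beside these values. Of 6 fibroblast markers only COL1A1 reached the filter, and the list summed to 2.13 to 2.28 FPKM in the controls and 3.09 to 3.19 FPKM in the ETS1 libraries, with COL1A1 called higher (0.30, limma adjusted p 0.00599), beside 30.7% of all tested genes. LUM was 0.00822 and 0.0376 FPKM in the controls and 0.168 and 0.141 in the ETS1 libraries, COL3A1 was 0.0547 and 0.0200 against 0.0694 and 0.117, and PDGFRB was 0.0312 and 0.00953 against 0.0440 and 0.0570. COL1A2 was at most 0.00157 FPKM in each library and DCN was at 0 in both ETS1 libraries. PTPRC, a defining leukocyte gene, was at most 0.0117 FPKM in each library. Melanocyte and neural crest markers summed to 2.14 to 2.17 and 3.03 to 3.14 FPKM, with 2 of 4 tested. MITF was called higher (0.21, limma adjusted p 0.0399), and PMEL, at 0.737 and 0.878 against 1.40 and 1.18 FPKM, reached the filter only through the ETS1 libraries. Chondrocyte markers summed to 2.68 to 2.93 and 2.87 to 3.03 FPKM, with 1 of 3 tested and 0 called, beside 59.1% of all tested genes. The endothelial genes in the table summed to 0.0309 to 0.0448 FPKM in the controls and 0.0760 to 0.0789 FPKM in the ETS1 libraries, with VWF at 10 and 4 against 24 and 25 reads and CDH5 at 0 in both controls. Their part in the SOX changes was not tested.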

How the data were processed

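RNA of 2 control and 2 ETS1 libraries of TE5 cells was sequenced. The FPKM values were computed by the authors. HISAT2, HTSeq and DESeq2 are named with hg38 in the submitters' processing notes; annotation and strand setting are not given in the sources used here. A second deposited table holds the authors' comparison of 16652 genes: a mean normalized count, a signal per the file headers; a log2 fold change with its standard error, per the file headers; and a p-value with its adjusted form, per the file headers.

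FPKM ratios between libraries and genes were matched by ratios of whole numbers within a relative 1e-09, which returned reads, gene lengths and depth; 99.6% of the comparison table's genes were whole. FPKM was tested as log2(FPKM + 1) with limma 3.58.1 (R 4.3.3), intensity trend, group term, 2 residual and 2.84 prior degrees of freedom, two-sided, on the 14306 genes averaging 1 FPKM or more. The design allowed for counts, and FPKM was found. Positions come from GENCODE 29 and promoters from RefSeq. In simulated data, 52.1% of 48 genes changed 1.25-fold and 90.9% of 44 changed 1.5-fold were recovered, with 9 false calls among 13964 genes. The simulation changed far fewer genes than were called here, and left genes with few reads unchanged. Beyond read sampling, it gave all genes the same replicate spread of 2.28%, taken from highly read genes. These rates therefore need not hold for the real libraries or for genes with few reads.

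The members and lists were chosen with earlier results of these data known. All members are named; from a list, up to 4 that passed are named in order of absolute change, plus genes a description needed. Some genes are not reported here. Alternatives were another pseudocount, 2 filters, 2 scalings, a replicate block, the authors' table, voom, removal of the local median of 25 genes on each side or of a trend with length and GC, and leaving out each library. The 2 libraries of a group were not 1 library deposited again: chi-square averaged 3.91 per gene in the controls and 3.90 in the ETS1 libraries.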

Additional observations from a re-analysis of the deposited data

How the results depend on the processing

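The count of 4 SOX genes called became 2 with no filter (SOX4 and SOX9, with all 10 genes tested) and 1 under the filter of 5 FPKM, which left 2 of them tested; it was 3 or 4 in the fits that left out 1 library each. Over all genes, 8451 calls became 5562 under the filter of 5 FPKM, which tested fewer genes, and 5790 to 7680 with 1 library left out. The sign of SOX12 turned under quantile normalization (0.049) and with the length and GC trend removed (0.027), and ran from -0.045 to 0.035 with 1 library left out. For SOX13 that range was -0.061 to 0.047. In each of these the call stayed not passed, and the cause was not tested. A fit with 1 library in a group assumes that it varies like the other group.

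Replicate numbers were also used as a block. Deviations of same-numbered libraries from their group means had a correlation of -0.046 across genes, so the numbers were not taken to pair the libraries. With the replicate block 4 SOX genes and 7283 of all genes were called. Precision is set by 2 libraries a group, and for SOX5, SOX11 and SOX15 by reads.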
